A study of Mus musculus with 9 samples.

Results

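The genes described here encode the proteins of the cytosolic ribosome. They were taken by name: protein-coding rows of the count table whose symbol starts with Rpl or Rps followed by a digit, with Rpsa, Rplp0, Rplp1 and Rplp2, leaving out the ribosomal S6 kinase genes and names that mark pseudogenes. This gave 86 genes of the 55359 in the table, 52 named for the large subunit and 34 for the small subunit. Of these, 84 passed the filter on low counts, 50 large and 34 small. Rpl10l, with no count in any library, and Rpl39l, with 0 to 3 counts, did not pass. The rule works on names, so it also takes in Rps19bp1, which encodes a protein that binds Rps19, and Rpl7l1, which encodes a relative of Rpl7. It misses genes such as Fau and Rack1, whose products are ribosomal components under other names.

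The ribosome is built from ribosomal RNA and a fixed set of proteins, each present in a single copy except at the stalk of the large subunit. The small subunit reads the messenger RNA and the large subunit joins the amino acids. Many ribosomal protein messenger RNAs start with a run of pyrimidines, the TOP motif, through which mTORC1 and the RNA-binding protein Larp1 control their translation and stability. In the genome each of these genes has processed pseudogenes, copies without introns that can resemble the parent closely enough to share sequencing reads.

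RNA was sequenced from mouse kidney in 9 libraries, 3 in each of 3 groups. Mice entered the study at 6 weeks of age. The NCD vehicle group ate a normal calorie diet, in which fat gave 11.32% of calories. The HFD-STZ vehicle group ate a high-fat diet (49.0% fat by calories) and received 2 injections of streptozotocin, a toxin of insulin-producing beta cells, at 30 mg/kg on days 60 and 63, with glucose tested on day 65. The HFD-STZ DHZ group had the same diet and injections and then received dehydrozingerone, a ginger compound related to curcumin, at 50 mg/kg by mouth for 2 weeks. Groups were read from the sample titles, because the treatment label is the same, the compound's name, on all 9 libraries. Strain and sex are not given in the labels, and nothing states that each library came from a separate animal, so p-values measure the spread between these samples only. Y-linked transcripts marked 4 of the 9 libraries, and the main fit has no term for them. Each library has its own batch date, in an order that follows the groups, and effects of batch cannot be told apart from those of group.

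Total counts ran from 15.1 to 47.5 M (M, mega), of which 2.13 to 15.2 M fell on nuclear protein-coding genes and 48957 to 705578 on ribosomal protein genes. Mitochondrially encoded genes took 39.2% to 60.4% of a library. HFD-STZ vehicle replicate 2 stood apart, with the fewest nuclear protein-coding counts and the most mitochondrial and Malat1 counts. The number of calls, the median over the members and the subunit ratio are therefore also given without it. Single-gene estimates and counts of separate groups include it. Markers of proximal tubule summed to 819 to 1656 CPM in every library. CPM are counts per M counts of scaled library size. Skeletal muscle markers, 7 in number, summed to 4.01 to 23.3 CPM, with Ckm at 0 in all libraries. In bulk tissue, fewer cells of a type and less RNA per cell cannot be told apart.

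In control kidney, levels per length spread widely around a median of 126 CPM per kb of transcript over the 84 tested members. The median was 137 CPM per kb for the large subunit and 122 for the small subunit. Rpl26, a protein at the rim of the peptide exit tunnel, was highest at 609 ± 3.18 CPM per kb (SD, n = 3). Among the next were Rpl21 at 357 ± 23.6, Rps12 at 339 ± 6.13 and Rpl35a at 313 ± 51.3 CPM per kb, which do not differ beyond their spread. Only 10 of the 84 were under 30 CPM per kb.

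The members at the low end were of different kinds. Rpl3l, the form of Rpl3 made in heart and skeletal muscle, stood at 0.260 ± 0.101 CPM per kb. Rpl36al, a near copy of Rpl36a, was at 1.08 ± 0.903 CPM per kb, while Rpl36a itself was at 143 ± 26.5. Rps10, Rpl24 and Rpl13a, ordinary subunits of every ribosome, were listed at 1.68 ± 0.248, 4.93 ± 1.78 and 5.28 ± 0.238 CPM per kb.

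Beside these low levels of core subunits, pseudogene rows held counts. Pseudogenes that share at least 1 stretch of 50 bases with the Rps10 transcript held 7.84 CPM in NCD vehicle, against 0.836 ± 0.123 CPM for Rps10 itself. The same sums were 11.4 CPM beside Rpl24, which had 3.33 ± 1.21, and 13.3 CPM beside Rpl13a, which had 5.53 ± 0.249. Of the Rps10 transcript, 7.57% of 50-base windows were found in no other gene, and over the 86 members the median was 45.5%. A low unique share did not always go with a low level: Rps27, with 1.35% unique windows, stood at 247 ± 62.9 CPM per kb. Across the 84 members the level and the unique share had a Spearman rho of -0.20, a correlation across genes that share the same libraries. Rps20 stood at 14.4 ± 2.34 CPM per kb, with an annotated transcript of 3706 bases for a coding sequence of 357.

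**Figure D1:**
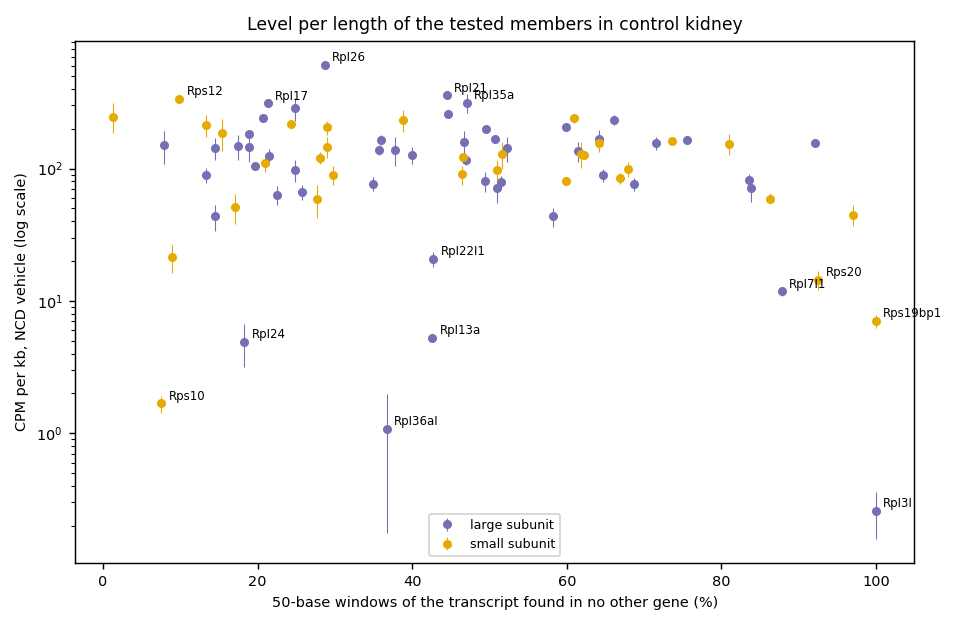
Mean level per length in the 3 NCD vehicle libraries (CPM per kb, log scale, bars: SD) of 82 of the 84 tested ribosomal protein genes, against the share of 50-base windows of the transcript found in no other gene. Rpl26 is highest at 609 CPM per kb, and Rps10, Rpl24 and Rpl13a lie under 6.

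Apart from Rpl22, the paralogs and look-alikes formed a low tier of the set. Rpl22, which binds cellular and viral RNAs, had 79.5, 71.8 and 83.4 CPM in NCD vehicle, and its paralog Rpl22l1 was lower in each of these libraries. Per length Rpl22 stood at 165 CPM per kb, above the median of 126 over the tested members. Rps27l, the p53-responsive paralog of Rps27, had 30.3, 36.4 and 35.8 CPM in the same libraries. Rpl7l1 had a mean of 15.4 CPM, Rps19bp1 had 6.68, 5.73 and 5.29, and Rps27rt, an intronless copy of Rps27, had 7.38, 6.44 and 10.1. None of these was called in any comparison (edgeR adjusted p 0.155 or above), and the same held for Rpl3l and Rpl36al, whose adjusted p was 0.148 or above.

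Promoter windows from RefSeq (GRCm38.p6, an older build than the GRCm39 of the counts) were at hand for 66 of the 86 members, 78 windows in all. The windows below run from 50 bases before to 30 bases after the annotated start. They belong to the 12 members with a window that rose from HFD-STZ vehicle to HFD-STZ DHZ, described further on, and to Rpl24, which fell. All of them are shown to let the starts be compared: 6 of the 12 hold a motif and 6 hold none. Capitals mark 3 motifs, searched on both strands: the pyrimidine runs CTTTCC and CTCTTT, which can overlap, and CCGGAAG, the core bound by ETS family factors. In Rps3a1 and Rps4x the marked pyrimidine run is antisense, and in Rpl4 and Rps4x it lies before the annotated start. Rpl7a holds a longer run of c and t that matches neither motif. The counts thus do not say which messenger RNAs start with a TOP motif.
Rps7 (chr12:28635924-28636003, minus strand): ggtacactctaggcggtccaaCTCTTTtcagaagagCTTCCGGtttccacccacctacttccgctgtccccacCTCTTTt
Rps6 (chr4:86857338-86857417, minus strand): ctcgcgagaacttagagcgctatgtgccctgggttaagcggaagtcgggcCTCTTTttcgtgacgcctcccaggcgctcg
Rps9 (chr7:3703991-3704070, plus strand): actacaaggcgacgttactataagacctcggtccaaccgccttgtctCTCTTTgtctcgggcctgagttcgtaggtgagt
Rps3a1 (chr3:86142639-86142718, minus strand): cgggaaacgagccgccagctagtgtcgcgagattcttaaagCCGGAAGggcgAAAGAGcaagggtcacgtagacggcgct
Rps4x (chrX:102189362-102189441, minus strand): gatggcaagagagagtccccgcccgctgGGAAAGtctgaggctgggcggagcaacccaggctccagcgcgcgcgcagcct
Rpl4 (chr9:64173337-64173416, plus strand): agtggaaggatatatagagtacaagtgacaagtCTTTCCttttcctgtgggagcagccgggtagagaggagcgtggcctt
Rpl7a (chr2:26910757-26910836, plus strand): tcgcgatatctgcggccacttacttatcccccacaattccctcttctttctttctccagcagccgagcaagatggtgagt
Rpl9 (chr5:65391402-65391481, minus strand): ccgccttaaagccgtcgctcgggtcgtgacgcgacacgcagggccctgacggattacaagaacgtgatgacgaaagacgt
Rpl10 (chrX:74270766-74270845, plus strand): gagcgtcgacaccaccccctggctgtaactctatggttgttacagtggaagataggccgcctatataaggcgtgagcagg
Rpl12 (chr2:32961662-32961741, plus strand): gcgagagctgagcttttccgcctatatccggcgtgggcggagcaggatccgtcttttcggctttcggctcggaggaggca
Rplp0 (chr5:115559417-115559496, plus strand): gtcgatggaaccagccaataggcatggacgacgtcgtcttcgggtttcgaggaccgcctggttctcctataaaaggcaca
Rps23 (chr13:90923072-90923151, plus strand): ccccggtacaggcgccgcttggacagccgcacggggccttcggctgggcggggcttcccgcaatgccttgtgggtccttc
Rpl24 (chr16:55966225-55966304, plus strand): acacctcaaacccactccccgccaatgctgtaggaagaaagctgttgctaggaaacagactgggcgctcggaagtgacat

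Over these 80 bases, CTTTCC was found in 23.1% of the 78 member windows and 7.24% of all 32851 windows. CTCTTT was found in 17.9% and 6.20%, and CCGGAAG in 17.9% and 4.77%. In Rps6 the pyrimidine run begins at the annotated start, in Rps9 it spans it, and in the windows of Rpl7a, Rpl9, Rpl10, Rpl12, Rplp0, Rps23 and Rpl24 none of the 3 motifs was found. A match here is a match of letters only.

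The diabetic model was compared with the control diet first. No ribosomal protein gene was called in HFD-STZ vehicle against NCD vehicle at an edgeR adjusted p below 0.05, where 0.0524% of the 17179 genes tested were called, 0.0233% higher and 0.0291% lower. An unadjusted p under 0.05 was reached by 7 members of 84 and by 7.43% of all genes. DESeq2 also called 0. The estimates leaned one way: 69 of 84 lay below 0, 39 of 50 in the large subunit and 30 of 34 in the small subunit. The median log2 fold change was -0.31, with -0.25 for large and -0.34 for small subunit members, beside 0.00 over all genes tested. In 18 members all HFD-STZ vehicle libraries lay below all NCD vehicle libraries (21.4% of those tested, against 6.56% of all genes), and in 0 members all lay above (4.83% of all genes).

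The lowest p-values in the small subunit belonged to Rps3a1, a protein of the platform near the messenger RNA exit. Its NCD vehicle libraries gave 114, 162 and 155 CPM and its HFD-STZ vehicle libraries 88.4, 63.5 and 96.6, a log2 difference of -0.79 ± 0.27 (SE, edgeR adjusted p = 0.521). The groups did not overlap. Rps4x, an X-linked protein of the body, had an estimate of -0.75 ± 0.26, with 38.8, 70.0 and 63.4 CPM against 40.7, 29.7 and 32.0, which overlap. For Rps21 the estimate was -0.50 ± 0.20, with 59.5, 66.1 and 65.9 CPM against 43.6, 39.9 and 51.8.

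In the large subunit Rpl13a, which also serves in interferon-driven translational silencing, had 5.77, 5.28 and 5.55 CPM against 3.74, 3.24 and 4.25 (log2 difference -0.55 ± 0.21, edgeR adjusted p = 0.599). Rpl3, which reaches towards the catalytic centre, had 44.3, 62.9 and 69.5 CPM against 40.3, 34.3 and 38.2. Rpl37a, a zinc-binding protein, had 65.3, 90.4 and 71.1 CPM against 53.8, 32.9 and 63.7. In all 3 genes the groups stood apart without overlap. The stalk, the arm that recruits elongation factors, had estimates of -0.68 ± 0.34 for Rplp0, -0.69 ± 0.32 for Rplp1 and -0.58 ± 0.28 for Rplp2. In each of these 3 genes HFD-STZ vehicle replicate 2 was the lowest of all 9 libraries, at 17.3, 20.9 and 12.3 CPM. Without that library the median over the members was -0.20.

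Dehydrozingerone was then compared with vehicle in the diabetic mice. Here 17 members were called, 20.2% of those tested, beside 22.1% of all genes, so the share called was near the background in this fit. It was above it with DESeq2, which called 23 members (27.1%, against 14.4% of all genes), without the filter (20 members, 23.5% against 14.5%) and with library size only (11 members, 13.1% against 5.17%). With DESeq2 and without the filter, all genes numbered 32021 and took in rows with low counts. The members' share was below that of all genes with upper quartile scaling (16.7% against 21.9%) and scaling on nuclear protein-coding genes (16.7% against 19.7%). The same held with only the 2 groups fitted (14.3% against 17.5%), the Y-linked term (17.9% against 21.3%) and the replicate block (11.9% against 12.6%). The direction was uneven: 16 rose and 1, Rpl24, fell, while over all genes 10.0% were called higher and 12% lower. Among nuclear protein-coding genes 11.5% were called higher, and among the 77 tested mitochondrial ribosomal protein genes 15 were called higher and 1 lower. Of the members' estimates 66 of 84 lay above 0, and the median was 0.41 (0.40 large, 0.46 small) beside 0.04 over all genes. Without HFD-STZ vehicle replicate 2 the median was 0.34, beside 0.03 over all genes. In 36 members all DHZ libraries lay above all HFD-STZ vehicle libraries (42.9%, against 20.9% of all genes), and in 3 all lay below (19.0% of all genes). The mitochondrial ribosomal protein genes came near the members, with a median of 0.34 and 33.8% above without overlap. For nuclear protein-coding genes these values were 0.13 and 23.5%. An unadjusted p under 0.05 was reached by 31 members, against 37.1% of all genes. This comparison shares the HFD-STZ vehicle libraries with the model comparison, so opposite signs in the 2 are not independent.

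**Figure D2:**
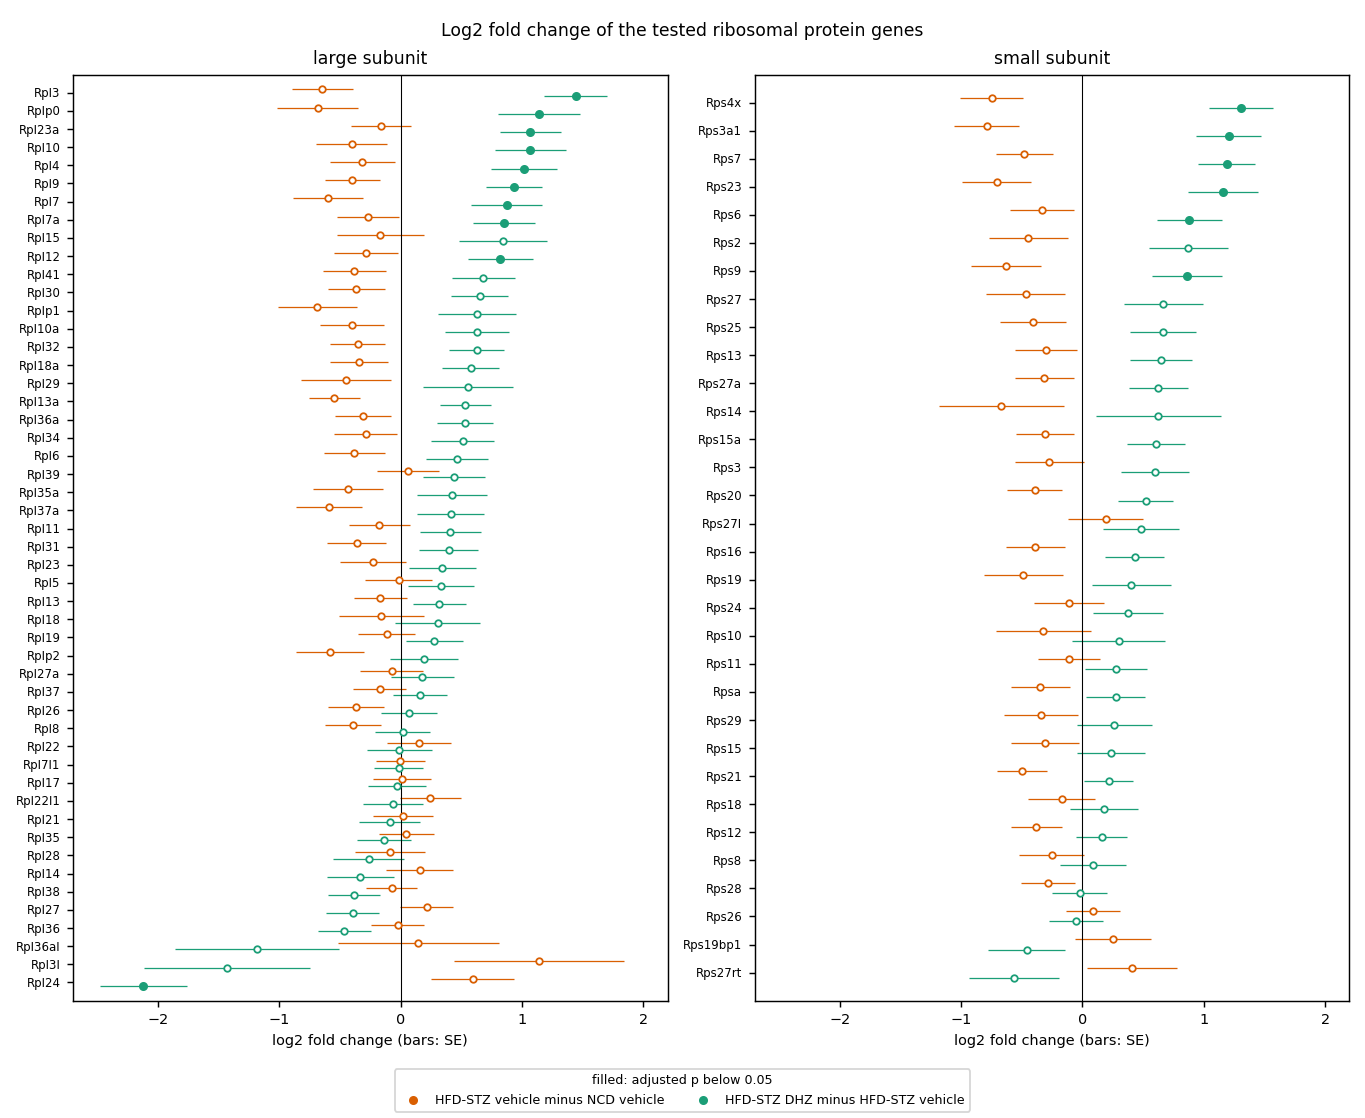
Log2 fold change (bars: SE) of 82 of the 84 tested members by subunit, for HFD-STZ vehicle minus NCD vehicle (orange) and HFD-STZ DHZ minus HFD-STZ vehicle (green), with called genes filled. Of those drawn, 64 estimates lie above 0 and 16 are called in the treatment comparison, and 67 lie below 0 and none is called in the model comparison.

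In the large subunit 9 of 50 tested members rose, led by Rpl3. This gene had 40.3, 34.3 and 38.2 CPM in HFD-STZ vehicle and 113, 121 and 73.3 in HFD-STZ DHZ, a rise of 1.44 ± 0.26 on the log2 scale (edgeR adjusted p = 0.00559). Every DHZ library lay above every other library. Rpl4, which lines the tunnel, had 71.5, 130 and 103 CPM against 228, 219 and 170 (1.02 ± 0.27, adjusted p = 0.0211). In Rpl4 83.5% of windows are unique, and the 1 pseudogene that shares sequence with it held 0.107 to 1.62 CPM.

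Rpl23a, at the tunnel mouth where the signal recognition particle docks, had 70.6, 61.8 and 89.8 CPM against 139, 177 and 151 (1.07 ± 0.25, edgeR adjusted p = 0.0132). Rpl10, a late-joining protein near the P site, had 97.9, 66.4 and 107 CPM against 172, 238 and 159 (1.07 ± 0.30, adjusted p = 0.0248). Rpl9, at the base of the stalk region, had 48.4, 46.1 and 43.9 CPM against 82.8, 112 and 69.8 (0.93 ± 0.23, adjusted p = 0.0159). In all 3 genes the groups were separate. Rpl7, Rpl7a and Rpl12, the last at the base of the stalk, also rose, by 0.87 ± 0.29, 0.85 ± 0.26 and 0.82 ± 0.27 (edgeR adjusted p = 0.049, 0.0339 and 0.0447). Their calls were lost in 14, 9 and 12 of 17 alternatives.

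Of the 3 stalk proteins 1 was called. Rplp0, its anchor on the ribosome, rose from 42.9, 17.3 and 49.4 CPM to 73.8, 99.7 and 68.8 (1.14 ± 0.34, edgeR adjusted p = 0.0321). Its partners Rplp1 and Rplp2 had estimates of 0.63 ± 0.32 (adjusted p = 0.176) and 0.20 ± 0.28 (adjusted p = 0.644), with overlapping groups. The difference between Rplp0 and its partners was not tested. Rpl5 and Rpl11, which leave the ribosome to bind Mdm2 when assembly fails, had estimates of 0.33 ± 0.28 and 0.41 ± 0.25, neither called. Rpl41, the shortest member with 75 coding bases, had 0.68 ± 0.26 (adjusted p = 0.0761).

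In the small subunit 7 members rose and none fell. Rps4x had 40.7, 29.7 and 32.0 CPM in HFD-STZ vehicle and 84.9, 99.1 and 69.4 in HFD-STZ DHZ (1.31 ± 0.27, edgeR adjusted p = 0.00806). Rps3a1 had 88.4, 63.5 and 96.6 CPM against 186, 234 and 154 (1.21 ± 0.27, adjusted p = 0.0109). Rps7, on the solvent side of the body, had 56.9, 44.0 and 57.3 CPM against 109, 145 and 107 (1.19 ± 0.24, adjusted p = 0.00748). In these genes every DHZ library stood above every HFD-STZ vehicle library.

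Rps23, which contacts the decoding centre, had 81.6, 50.0 and 90.6 CPM against 151, 196 and 150 (1.16 ± 0.29, edgeR adjusted p = 0.0165). Rps6, the ribosomal target of the S6 kinases, had 123, 120 and 147 CPM against 235, 268 and 217 (0.88 ± 0.26, adjusted p = 0.0336). Rps9, in the shoulder, had 51.8, 25.2 and 45.1 CPM against 66.1, 97.8 and 58.7 and was called at the margin (0.86 ± 0.29, edgeR adjusted p = 0.0499).

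**Figure D3:**
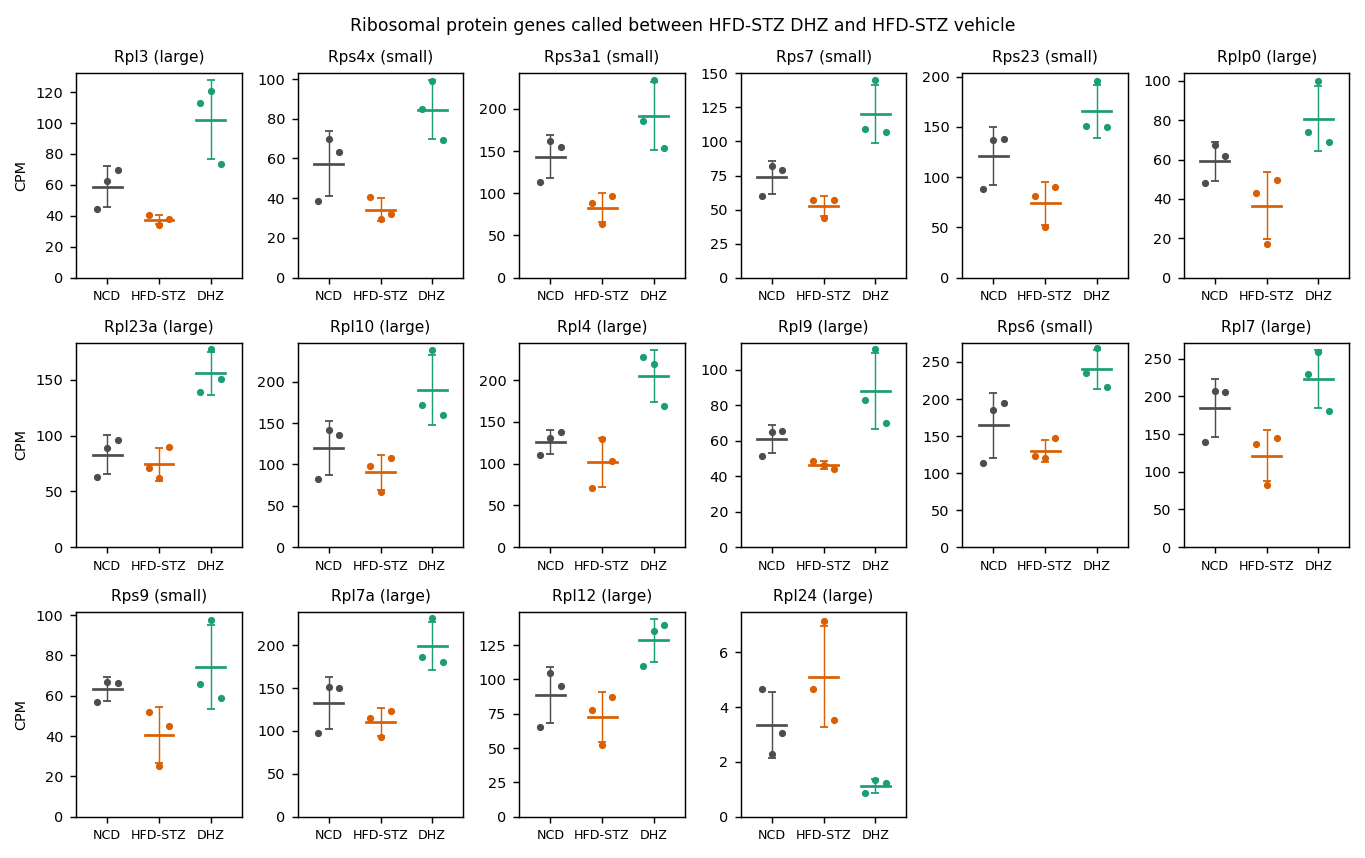
CPM in each of the 9 libraries for 16 of the 17 members called between HFD-STZ DHZ and HFD-STZ vehicle, ordered by log2 fold change (points: libraries, bars: mean and SD of each group, n = 3). For all but Rpl24 the 3 DHZ libraries lie above the 3 HFD-STZ vehicle libraries.

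Other small subunit proteins with known special roles were not called. Rpsa, which doubles as a laminin receptor, had an estimate of 0.27 ± 0.24. Rps3, at the messenger RNA entry, had 86.0, 47.9 and 78.6 CPM against 97.4, 139 and 86.1 (0.60 ± 0.28, edgeR adjusted p = 0.144). Rps27a, made as a fusion with ubiquitin, had 0.63 ± 0.24 (adjusted p = 0.0822), and Rps19, the gene most often mutated in Diamond-Blackfan anaemia, 0.40 ± 0.33. Rps14 had 62.1, 11.3 and 71.9 CPM in HFD-STZ vehicle, so its spread was set by replicate 2, and its SE of 0.52 was the largest in the small subunit.

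Rpl24 was the exception in direction. This protein of the large subunit reaches over to the small subunit as a bridge. It had 4.66, 7.15 and 3.53 CPM in HFD-STZ vehicle and 0.853, 1.34 and 1.22 in HFD-STZ DHZ, a fall of -2.12 ± 0.36 (edgeR adjusted p = 0.00466). These values rest on 86, 53 and 88 counts against 29, 87 and 42. Pseudogenes that share windows with Rpl24 held 11.0, 25.1 and 10.6 CPM in HFD-STZ vehicle and 5.76, 8.88 and 6.86 in HFD-STZ DHZ, so they were lower in the same libraries, and their part in the result was not tested. The other members with estimates below -1 were Rpl3l at -1.43 ± 0.68 and Rpl36al at -1.19 ± 0.68, both with at most 37 counts in a library and neither called.

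The calls depended on single libraries. Rpl3, Rps4x and Rps7 kept their call in all 17 alternative analyses of this comparison. The count of 17 became 4 without HFD-STZ DHZ replicate 2, the deepest library, and 6 without HFD-STZ DHZ replicate 1, where 7.41% and 6.55% of all genes were called. It was 12, with 19.4% of all genes, without HFD-STZ vehicle replicate 2, where Rpl7, Rpl7a, Rpl10, Rpl12, Rps6 and Rps9 lost their call. Over all alternatives Rps9 lost its call in 13 of 17 and Rps6 in 7, and the other members named above as called in 4 or fewer, apart from Rpl7, Rpl7a and Rpl12.

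Within the set, the calls were unevenly spread over coding length. Of 32 tested members with a coding length of 500 bases or more, 13 rose (40.6%) and none fell, and their median log2 fold change was 0.61. Of 33 with 350 to 499 bases, 3 rose (9.09%) and 1 fell (3.03%), with a median of 0.34. Over all genes 10.0% were called higher and 12% lower, so the share that rose in the middle class was near that of all genes. None of the 19 with shorter coding sequences was called, and their median was 0.26. Rps23, at 429 bases, was the shortest member to rise. The Spearman rho between coding length and log2 fold change was 0.34 over the 84 members, 0.27 over the large and 0.47 over the small subunit. Over 13463 nuclear protein-coding genes it was -0.15, over the 2449 of them with transcripts up to 1500 bases -0.03, and over mitochondrial ribosomal protein genes 0.10. These are correlations across genes measured in the same libraries, and the length classes were set after the values were seen. Between the 17 alternatives the rho over members ran from 0.29 to 0.38.

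**Figure D4:**
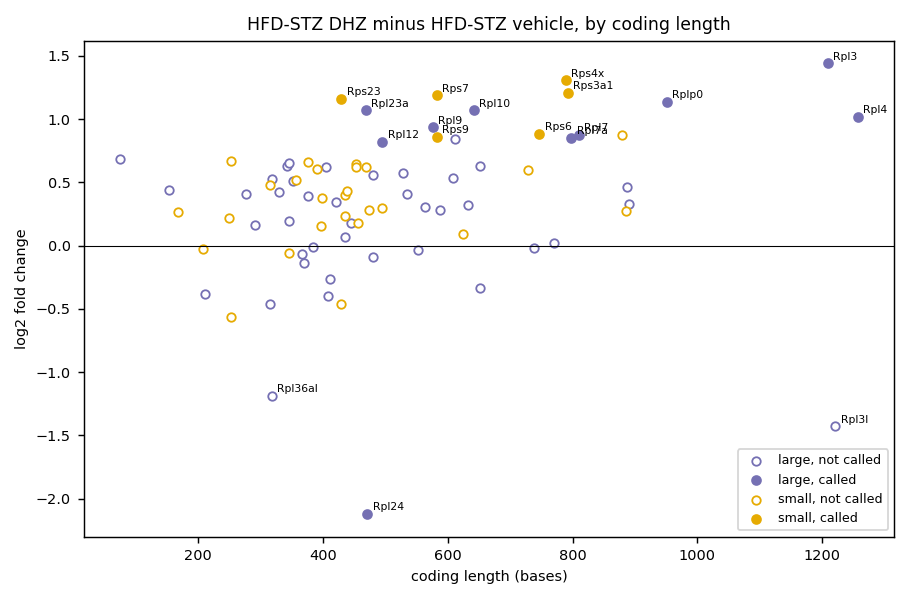
Log2 fold change of HFD-STZ DHZ minus HFD-STZ vehicle against coding length in bases for 82 of the 84 tested members, coloured by subunit and filled where called. The 15 members drawn that rose all have 429 coding bases or more, and Rpl24, which fell, has 471.

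Treated diabetic kidney was also compared with the control diet. Here 2 members were called (2.38% of those tested), against 13.7% of all genes, 6.31% higher and 7.38% lower. An unadjusted p under 0.05 was reached by 10 members, against 31.7% of all genes. Rpl23a was higher, with 63.1, 88.9 and 96.3 CPM in NCD vehicle and 139, 177 and 151 in HFD-STZ DHZ (0.91 ± 0.25, edgeR adjusted p = 0.0336). Rpl24 was lower, with 4.65, 2.28 and 3.07 CPM in NCD vehicle (-1.53 ± 0.35, adjusted p = 0.0198). The groups did not overlap for either gene. The call was lost in 8 of 17 alternatives for Rpl23a, among them each of the 6 that left out 1 library of these groups. It was lost in 5 for Rpl24, among them those without NCD vehicle replicate 1 and without HFD-STZ DHZ replicate 1 or 2. The next in order, Rpl3 and Rps7, had 0.80 ± 0.25 (adjusted p = 0.0547) and 0.71 ± 0.23 (adjusted p = 0.0613). The median over members was 0.14, with 0.13 for the large and 0.15 for the small subunit, beside 0.01 over all genes. It was -0.01 without HFD-STZ DHZ replicate 2, which turned its direction, and 0.05 both without NCD vehicle replicate 1 and with scaling on nuclear protein-coding genes. In 17 members all DHZ libraries lay above the controls and in 7 below, 20.2% and 8.33% of those tested, where 22.4% and 21.7% of all genes did.

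Rpl26, Rpl36 and Rpl38 belonged to the members listed lower in HFD-STZ DHZ than in NCD vehicle in every library, with estimates of -0.30 ± 0.23, -0.49 ± 0.22 and -0.46 ± 0.21, none called. For Rpl26, the member with the highest level, the NCD vehicle libraries gave 321, 318 and 321 CPM, HFD-STZ vehicle 233, 252 and 259, and HFD-STZ DHZ 245, 284 and 250. Neither diabetic group overlapped the controls.

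Summed over all 86 members, ribosomal protein genes took 3.00%, 3.88% and 4.08% of nuclear protein-coding counts in NCD vehicle. They took 3.15%, 2.30% and 2.94% in HFD-STZ vehicle, and 3.80%, 4.64% and 3.80% in HFD-STZ DHZ. The group means were 3.65% ± 0.576, 2.80% ± 0.443 and 4.08% ± 0.485 (SD, n = 3 each). The 2 diabetic groups were separate and both overlapped the controls. A sum over chosen genes is given here without a test.

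The large to small subunit ratio of summed counts was 1.76, 1.62 and 1.67 in NCD vehicle, 1.72, 2.10 and 1.77 in HFD-STZ vehicle, and 1.68, 1.58 and 1.64 in HFD-STZ DHZ. The group means were 1.68 ± 0.0697, 1.86 ± 0.206 and 1.63 ± 0.0529. Every HFD-STZ vehicle library was above every DHZ library, while the controls overlapped both groups. Without HFD-STZ vehicle replicate 2 that group's mean was 1.75 ± 0.0328. The medians of the fold changes were -0.25 large and -0.34 small under the model and 0.40 and 0.46 under treatment, and their difference was not tested.

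The shares moved with other properties of the libraries. Malat1, a long RNA held in the nucleus, stood at 47779, 18577 and 15327 CPM in NCD vehicle, 32992, 96806 and 39553 in HFD-STZ vehicle and 11116, 9298 and 15058 in HFD-STZ DHZ. The library with the most Malat1, HFD-STZ vehicle replicate 2, had the lowest ribosomal protein share and the highest subunit ratio, and the one with the least, HFD-STZ DHZ replicate 2, had the highest share and the lowest ratio. Within NCD vehicle the library with the most Malat1 also had the lowest share. The part of these properties in the results was not tested.

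**Figure D5:**
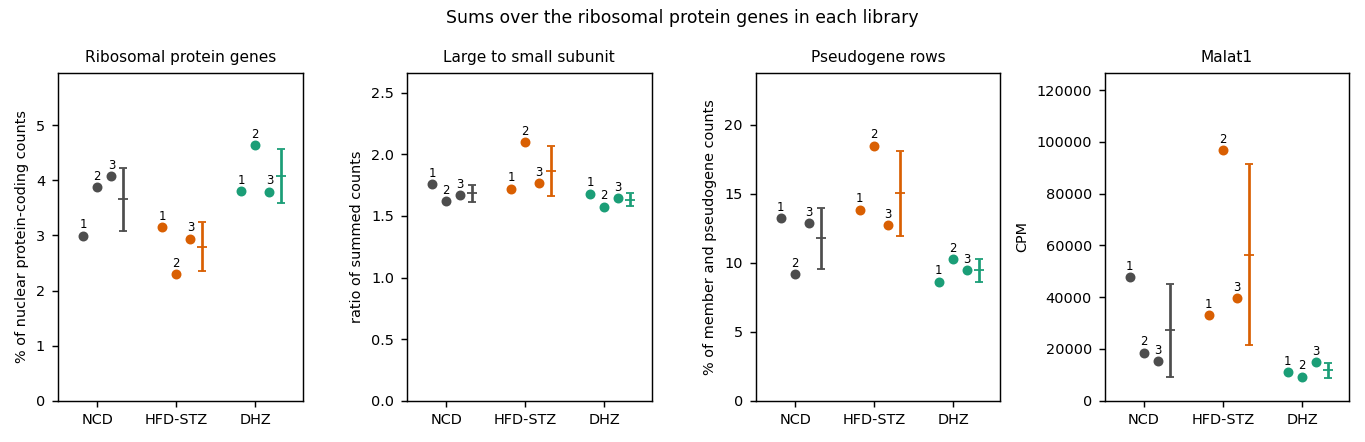
Per library (points, numbered by replicate) and as mean with SD (n = 3): ribosomal protein share of nuclear protein-coding counts, large to small subunit ratio, pseudogene share of member and pseudogene counts, and Malat1 in CPM. HFD-STZ vehicle replicate 2 has the lowest share (2.30%), the highest ratio (2.10) and the highest pseudogene share (18.5%).

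Of the 300 rows with a pseudogene name, 146 were tested, and between HFD-STZ DHZ and HFD-STZ vehicle 26 of them fell and 3 rose, with a median log2 fold change of -0.52. Between HFD-STZ vehicle and NCD vehicle 0 were called, 85 estimates lay above 0 and 61 below, and the median was 0.08. The treatment comparison had 17.8% called lower, against 12% of all genes. Pseudogenes took 13.2%, 9.21% and 12.9% of the joint member and pseudogene counts in NCD vehicle, 13.9%, 18.5% and 12.7% in HFD-STZ vehicle, and 8.64%, 10.3% and 9.47% in HFD-STZ DHZ. The 2 diabetic groups were separate in this share, which also falls when member counts rise. The pseudogene sum itself overlapped, at 1083, 1499 and 1121 CPM in HFD-STZ vehicle and 806, 1249 and 884 in HFD-STZ DHZ. For Rps6 the 4 rows named as its pseudogenes summed to 110, 138 and 152 CPM in NCD vehicle, 121, 151 and 133 in HFD-STZ vehicle and 130, 181 and 133 in HFD-STZ DHZ. Rps6 itself was above these sums in every library but HFD-STZ vehicle replicate 2, where it had 120 CPM. Pseudogenes that share 50-base windows with Rps6 held more. Their sum was 201, 223 and 260 CPM in NCD vehicle, where Rps6 had 114, 186 and 194. It was 220, 291 and 239 CPM in HFD-STZ vehicle, where Rps6 had 123, 120 and 147. In HFD-STZ DHZ it was 203, 292 and 210 CPM, and Rps6 had 235, 268 and 217. Rps6 was thus below this sum in every NCD vehicle and HFD-STZ vehicle library and in HFD-STZ DHZ replicate 2.

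Members were also read by how much of their sequence is their own. Over the 11 tested members with at least 80% unique windows the median was 0.44 under treatment and -0.11 under the model. Under treatment 2 of the 11 were called, Rpl4 among them (18.2%, against 22.1% of all genes). Over the 73 others the medians were 0.41 and -0.32, with 20.55% called under treatment.

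Components and partners of the ribosome outside the rule were read from lists. Rack1, the scaffold on the small subunit head, had an estimate of 0.77 ± 0.31 under treatment (edgeR adjusted p = 0.0886). Fau, which encodes Rps30 fused to a ubiquitin-like protein, had 0.03 ± 0.26. Neither was called in any comparison.

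Of 37 translation factors tested, 18 rose and 4 fell between HFD-STZ DHZ and HFD-STZ vehicle, with a median of 0.63. That is 48.6% higher and 10.8% lower, against 10.0% and 12% of all genes. Eef1b2, a nucleotide exchange factor of elongation, rose from 24.7 ± 3.97 to 60.3 ± 13.4 CPM (1.29 ± 0.25, edgeR adjusted p = 0.00665). Btf3, a subunit of the nascent chain complex at the tunnel mouth, rose by 1.31 ± 0.27 and Eif4g2, an initiation scaffold, by 1.28 ± 0.25. Eif5b, which joins the subunits, fell from 659 ± 309 to 190 ± 38.2 CPM (-1.80 ± 0.38, adjusted p = 0.00939). Against NCD vehicle 6 of the 37 rose and 0 fell, among them Eef1e1 at 1.19 ± 0.24, and under the model 0 were called. The share higher against NCD vehicle was 16.2%, where 6.31% of all genes were called higher and 7.38% lower.

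Of 45 ribosome assembly factors tested, 2 rose and 7 fell under treatment, with a median of -0.10. The share called was 20.0%, near the 22.1% of all genes. Nolc1, a nucleolar chaperone, fell by 1.23 on the log2 scale (SE 0.25), the kinase Riok1 by 1.08 (SE 0.24) and Nop56, a core protein of box C/D particles, by 1.11 (SE 0.26). Npm1, an abundant nucleolar protein, rose by 1.10 ± 0.25 (edgeR adjusted p = 0.0120). Against NCD vehicle 4 rose and 5 fell, with Npm1 again higher at 1.13 ± 0.25, and 0 were called under the model. The shares against NCD vehicle were 8.89% higher and 11.1% lower, beside 6.31% and 7.38% of all genes.

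In the mTORC1 list 5 of 31 rose and 4 fell under treatment, 29.0% called against 22.1% of all genes. Rragc and Rraga, the GTPases that bring mTORC1 to the lysosome, rose by 1.53 ± 0.22 and 1.30 ± 0.29, and Lamtor3, of their anchor, by 1.39 ± 0.28. Larp1, which binds TOP messenger RNAs, fell from 120 ± 33.9 to 51.3 ± 10.8 CPM (-1.22 ± 0.28, edgeR adjusted p = 0.0119). Against NCD vehicle 2 rose and 1 fell, Rraga (1.33 ± 0.28), Rheb (0.84 ± 0.21) and Rps6kb2 (-1.27 ± 0.32). That is 6.45% higher and 3.23% lower, where 6.31% and 7.38% of all genes were called. Under the model 0 were called, with Rragc at -0.88 ± 0.22 (adjusted p = 0.279).

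Of the 16 tested genes that watch over stalled ribosomes or free ribosomal proteins, 1 rose and 1 fell under treatment, 12.5% called against 22.1% of all genes. Ltn1, the ubiquitin ligase of the quality control complex, rose by 0.60 ± 0.18 (edgeR adjusted p = 0.0362), and its partner Nemf fell from 211 ± 60.5 to 77.2 ± 10.9 CPM (-1.45 ± 0.30, adjusted p = 0.00857). Against NCD vehicle Ltn1, Mdm2 and Cdkn1a were higher, by 0.66 ± 0.18, 0.99 ± 0.24 and 1.86 ± 0.39, and 0 of the list fell. The share higher was 18.75%, beside 6.31% of all genes, and 7.38% of all genes were called lower. Cdkn1a under the model stood at 5.92 ± 0.806 CPM against 1.85 ± 0.264, which was not called (1.69 ± 0.40, adjusted p = 0.224).

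Markers of other cell types were read beside these results. Podocyte markers summed to 20.9 to 43.4 CPM in HFD-STZ vehicle and 67.6 to 87.6 in HFD-STZ DHZ, and macrophage markers to 20.5 to 50.7 and 34.5 to 41.4. White adipocyte markers summed to 10.4 to 22.8 and 25.1 to 86.9 CPM, and lymphocyte markers to 4.59 to 22.1 and 6.91 to 22.5. Distal tubule and collecting duct markers summed to 829 to 891 and 415 to 811 CPM. The podocyte and adipocyte sums were thus higher in DHZ without overlap, and the distal sum was lower without overlap, with Aqp3 called lower (-0.62 ± 0.20). The podocyte list was split: of its 5 estimates 3 lay above 0, with 2 called higher, and 2 lay below. All 6 tested adipocyte estimates lay above 0 and all 6 distal ones below. Among the 6 macrophage markers, 4 were higher in every DHZ library and 1 was lower, with a median log2 fold change of 1.09 over the 6. C1qb (1.60 ± 0.34) and C1qa (1.86 ± 0.48) were called higher and Csf1r (-1.09 ± 0.31) was called lower. These lists are short. Over all genes 20.9% were higher in DHZ without overlap and 19.0% lower, and 10.0% were called higher and 12% lower. The part of these markers in the ribosomal protein results was not tested.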

How the data were processed

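Whole numbers of reads per gene for 9 kidney libraries came from a table of raw counts deposited by the authors. Per the labels' protocols, the libraries were stranded and made from poly(A)-captured RNA. STAR, Trim Galore and FastQC, without versions, and the build GRCm39 (mm39) are named in the submitters' processing notes. No source at hand states the treatment of multi-mapping reads, so reads shared by a gene and its pseudogenes cannot be separated. Columns of other samples numbered 0.

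Symbols, classes and transcripts were matched by Ensembl identifier to GENCODE M21, an annotation of an older build used for names and lengths only. A symbol was found for 94.1% of all rows and 99.5% of the genes tested. Pseudogenes were rows whose symbol marks them so, and sharing was scored over 50-base windows of the transcripts.

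Counts were filtered with filterByExpr in edgeR 4.0.16 (R 4.3.3), scaled with TMM factors and fitted in 1 robust quasi-likelihood model with group as the term. This left 17179 genes and 6 residual degrees of freedom. Each of the 3 comparisons used the quasi-likelihood F-test, and p-values were adjusted across the whole tested table by the Benjamini-Hochberg method. In the text, called, rose or fell means an adjusted p below 0.05. Every adjusted p in the text is from this test unless DESeq2 1.42.0 is named. SE values derive from the F statistic. The fit was run on simulated data with known changes in well-counted genes and less spread than these counts. That run checks the steps and does not measure performance on these data. Alternatives were other scalings, filters, tools, a replicate block, a term for the 4 libraries with Y-linked transcripts and each library left out.

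Members named are the 6 with the lowest p in each subunit and comparison, the extremes in fold change, the 5 highest and lowest levels per length, paralogs, members with special roles, and up to 4 genes of each list per comparison, and not every one that qualifies is described. Rpl12, Rpl36, Rpl36a, Rpl38, Rps14, Rps20 and Rps27 fall outside this rule and were chosen after their values were seen. The members, lists and rules were chosen with earlier results of these data known. No p-value is given for a sum or median over members. Values of some genes are not reported here, in text or figures, while counts and medians include them.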

Additional observations from a re-analysis of the deposited data

How the results depend on the processing

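Depth limits the lowest members: a count of 0 allows up to 3 counts, or 0.0463 to 0.405 CPM, for counting error only. No member's call reversed direction: over 17 alternatives for each member in HFD-STZ DHZ against HFD-STZ vehicle, 76 values lost a call and 14 gained one. In HFD-STZ vehicle against NCD vehicle no alternative called a member. Between HFD-STZ DHZ and HFD-STZ vehicle the 17 calls became 11 with library size only (where 5.17% of all genes were called), 10 with the replicate block, and 4 to 17 when 1 library was left out. Between HFD-STZ DHZ and NCD vehicle the 2 calls became 0 with library size only and with the replicate block, 5 with the Y-linked term and with DESeq2, 6 with only the 2 groups fitted, and 0 to 4 when 1 library was left out. Replicate numbers did not pair the libraries: same-number correlations of deviations ran from -0.41 to 0.22. With library size only, the medians were -1.05 in HFD-STZ vehicle against NCD vehicle and 1.17 in HFD-STZ DHZ against HFD-STZ vehicle, while the median of all genes moved to -0.74 and 0.81, so relative to all genes members stood at -0.32 and 0.36. The ribosomal protein share, listed for the controls, then the diabetic vehicle group, then the treated group, was 3.05%, 2.30% and 3.48% without the 5 members with the highest counts and 1.07%, 0.529% and 1.20% of all counts. With pseudogene counts added it was 3.27% in HFD-STZ vehicle. The large to small ratio in the same order was 1.43, 1.60 and 1.45 without those 5 members, 1.95, 2.29 and 1.89 over members of 400 or more coding bases (chosen after seeing the data), and 1.61 in NCD vehicle and 1.57 in HFD-STZ DHZ with ribosome components outside the rule added. As a difference of median log2 CPM it was 0.098, 0.30 and 0.16. Other causes of these shifts were not tested.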
